A study of Mus musculus with 16 samples.

Results

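This account describes 39 genes that carry fatty acids into the heart muscle cell and through beta-oxidation, in left ventricles of mice that the series describes as a Tfeb knockout specific to cardiomyocytes, and of controls. They are the listed mouse symbols that an Ensembl gene ID in the count table maps to. All 39 of 39 were found among 57186 gene IDs, and all 39 had enough counts to enter the test beside 15206 genes in all. The genes were sorted by step into uptake and binding, activation, the carnitine shuttle, malonyl-CoA control, the acyl-CoA dehydrogenases, the later reactions of the mitochondrial spiral, the auxiliary enzymes for unsaturated chains, electron transfer, thioesterases and peroxisomal enzymes.

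Long-chain fatty acids are the main fuel of the adult heart. They cross the plasma membrane with the help of transporters, are bound by a small carrier protein, and are joined to coenzyme A. The carnitine shuttle, which malonyl-CoA inhibits at its first enzyme, takes the acyl chain into the mitochondrion, where repeated cycles of dehydrogenation, hydration, oxidation and thiolysis shorten it to acetyl-CoA and pass electrons to the respiratory chain. Very long chains are first shortened in peroxisomes, and thioesterases release fatty acids from coenzyme A. TFEB is a transcription factor known for binding the CLEAR element, an E-box, in genes of lysosomes and autophagy.

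The 4 groups had the genotype cKO-TFEB with transverse aortic constriction (TAC), cKO-TFEB with sham surgery, WT with TAC and WT with sham surgery, each of the strain C57/BL6N and each with 4 replicates. TAC narrows the aorta and puts a pressure load on the left ventricle. WT is the label of the control mice, and which alleles or Cre they carry, the Cre line of the knockout, age, sex and the time after surgery are not given in the sources used here. Total RNA of bulk left ventricle was sequenced, and fewer cells of a type and less RNA per cell cannot be told apart. The design asks how TAC changes these genes in each genotype, how the genotypes differ within each surgery, and whether the TAC response differs between them.

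Counts per library totalled 12946878 to 16347388, of which 145153 to 275783 fell on the 39 genes. The series calls the 4 replicates of a group biological without saying whether each is 1 animal, and p-values measure the spread between these samples. WT sham 3 and WT TAC 4 stood apart by high levels of the atrial genes Myl7, Myl4 and Sln, given with the other markers at the end. Levels are CPM, the counts of a gene per 1000000 counts after scaling by TMM factors, and a gene is said to have fallen or risen where edgeR's quasi-likelihood test gave a Benjamini-Hochberg adjusted p under 0.05 over all 15206 tested genes. Tfeb itself measured 14.7, 13.8, 13.0 and 9.37 CPM in cKO TAC hearts and 10.0, 9.12, 9.68 and 13.0 CPM in cKO sham hearts. It measured 40.0, 34.6, 20.6 and 21.1 CPM in WT TAC hearts and 30.9, 37.4, 40.1 and 37.6 CPM in WT sham hearts. Each cKO library lay below every WT library for Tfeb, and WT TAC 3 and 4 were the lowest of the WT libraries. The difference in log2 Tfeb level was -1.19 (SE 0.20, adjusted p = 0.0138) between cKO TAC and WT TAC hearts and -1.80 (SE 0.20, adjusted p = 0.000604) between cKO sham and WT sham hearts, by edgeR's test.

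Promoter windows of 300 bases, from 250 before to 50 after a start, were found in RefSeq (GRCm38.p6) for 32 of the 39 genes. The E-box CACGTG, searched on both strands, lay in the window of 1 of these 32 genes (3.13%), against 8.09% of 27025 genes with a window. That gene was Slc27a1, and its stretch is shown because no other member window held the core letters of the CLEAR element. It covers chr8:71570372-71570417 on the plus strand, with the E-box in capitals beginning 202 bases before a RefSeq start.
Slc27a1: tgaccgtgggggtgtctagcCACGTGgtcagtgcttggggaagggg
The longer CLEAR core TCACGTGA, which contains the E-box, lay in 0 of 32 member windows and in 1.13% of genes. The single site AGGTCA, which nuclear receptors such as PPAR and ERR are known to bind, lay in 6 of 32 (18.8%: Cd36, Cpt1a, Acacb, Acadvl, Acadm and Echs1), against 18.1% of genes. Its extended form TCAAGGTCA lay in 0 of 32 and 0.466% of genes, and the paired form AGGTCANAGGTCA, which contains the single site, in 0 of 32 and 0.048% of genes. Hadha and Hadhb, which encode the 2 subunits of the mitochondrial trifunctional protein, start 273 bases apart on opposite strands, and their windows share 228 bases. Whether this shared stretch has a part in their counts was not tested. The Hadhb window, chr5:30155003-30155302 on the plus strand, is shown for this overlap, with the bases that it shares with the Hadha window in capitals.
Hadhb: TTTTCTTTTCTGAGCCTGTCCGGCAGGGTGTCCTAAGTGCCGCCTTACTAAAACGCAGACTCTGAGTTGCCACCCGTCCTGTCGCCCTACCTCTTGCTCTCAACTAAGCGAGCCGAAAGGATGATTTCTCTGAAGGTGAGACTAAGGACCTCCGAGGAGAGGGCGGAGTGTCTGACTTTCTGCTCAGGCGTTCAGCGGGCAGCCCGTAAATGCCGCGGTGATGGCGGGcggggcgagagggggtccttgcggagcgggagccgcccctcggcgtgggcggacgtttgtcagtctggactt

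Taken over all 39 genes, the family held 1.15% ± 0.0964 of all counts in cKO TAC hearts, 1.60% ± 0.0726 in cKO sham hearts, 1.495% ± 0.118 in WT TAC hearts and 1.87% ± 0.0570 in WT sham hearts (SD, n = 4 each). Mitochondrially encoded genes held 17.3% of counts in cKO TAC hearts, 22.6% in cKO sham hearts, 19.8% in WT TAC hearts and 23.5% in WT sham hearts, with 20.4% in cKO TAC 3 and 16.1% to 16.3% in the other cKO TAC libraries. Of the counts outside those genes the family held 1.40% ± 0.151 in cKO TAC hearts, 2.07% ± 0.118 in cKO sham hearts, 1.87% ± 0.187 in WT TAC hearts and 2.45% ± 0.0495 in WT sham hearts. In cKO hearts 29 of 39 genes fell after TAC and none rose, with a median log2 fold change of -0.66 against 0.00 over all tested genes. Of all tested genes 12.4% fell and 14.2% rose in that comparison. In WT hearts 24 of 39 fell after TAC and none rose, with a median of -0.46 against -0.01 over all tested genes, of which 6.14% fell and 9.7% rose. The 24 genes that fell in WT hearts were also among the 29 that fell in cKO hearts, that is 100% of the shorter list and 82.8% of the longer one. These 2 comparisons share no library. Without WT TAC 1 the WT count was 14, and without any other library it was 18 to 26. Another 5 genes (Acadl, Hadh, Eci1, Acot1 and Acot13) passed in cKO hearts alone, and 10 passed in neither genotype (Slc27a4, Fabp3, Acsl3, Acsl4, Cpt1a, Cpt1b, Acad9, Acad10, Acaa1a and Hsd17b4). Of the 5, Acot1 also passed as lower in WT hearts in 9 of 24 alternatives, Hadh in 5 and Eci1 in 5. Of the 10, Hsd17b4 passed as lower in cKO hearts in 10 alternatives, Fabp3 in 6 and Acaa1a in 5, Acsl4 passed as higher there in 8 and Cpt1a in 2, and Acad9 passed as lower in WT hearts in 1. Every cKO TAC library lay below every cKO sham library for 27 of 39 genes (13.8% of all tested genes), and every WT TAC library lay below every WT sham library for 24 of 39 (8.44% of all tested genes).

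**Figure D1:**
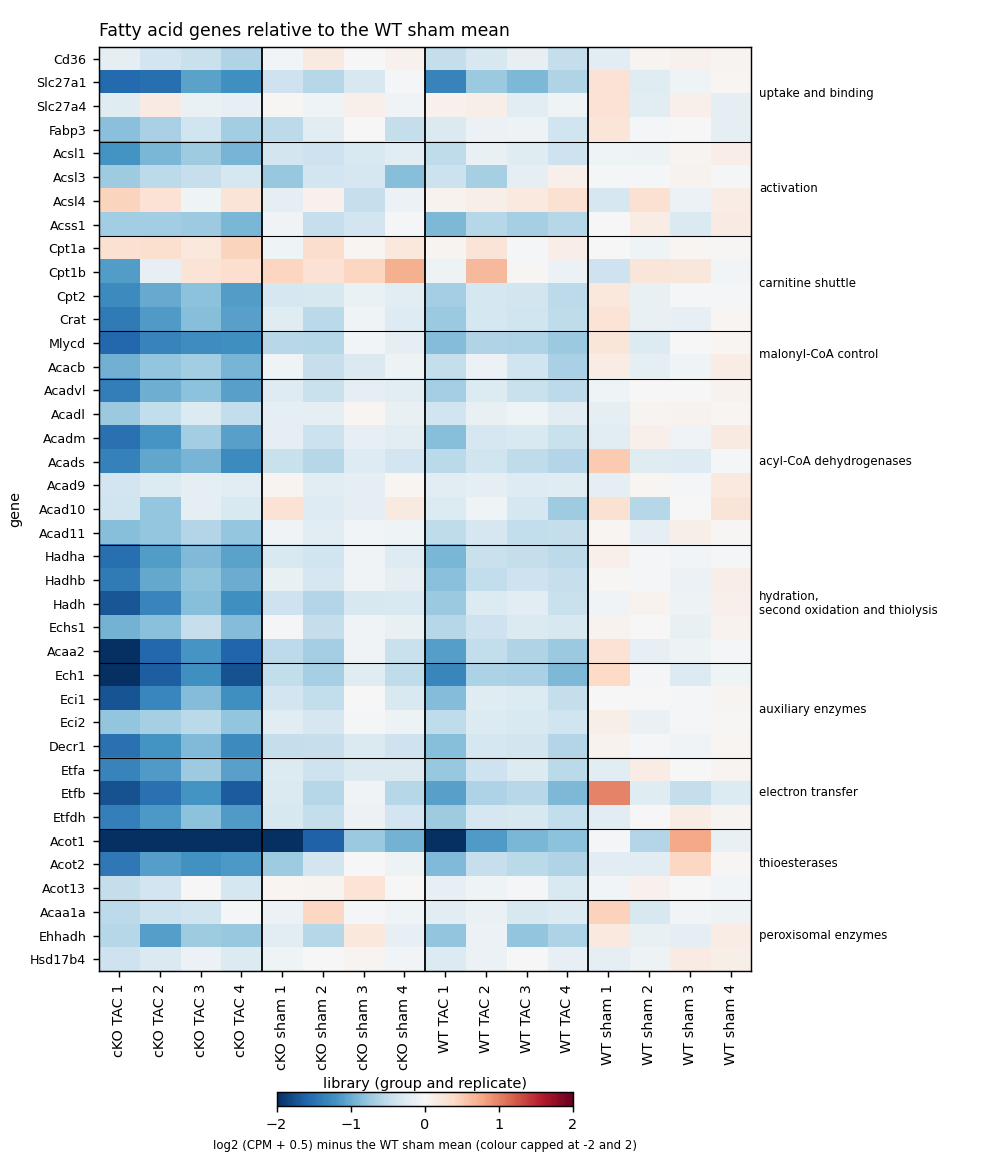
Each row is 1 of the 39 genes, ordered by step, and each column is 1 of the 16 libraries. Colour gives log2 (CPM + 0.5) minus the mean of the 4 WT sham libraries, blue for lower and red for higher, capped at -2 and 2. The cKO TAC columns are the bluest, with cKO TAC 1 lowest and cKO TAC 3 least low, while Cpt1a, Acsl4 and Slc27a4 stay near white or pale red.

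Within groups the libraries also differed for the family as a whole. On the mean over 39 genes of log2 (CPM + 0.5) relative to the WT sham mean, cKO TAC libraries 1 to 4 stood at -1.08, -0.90, -0.67 and -0.85. The cKO sham libraries stood at -0.30, -0.34, -0.12 and -0.20, the WT TAC libraries at -0.64, -0.30, -0.35 and -0.45, and the WT sham libraries at 0.07, -0.08, -0.01 and 0.03. The cKO TAC libraries were below all others, and cKO TAC 3 lay close to WT TAC 1. Among TAC libraries cardiomyocyte markers broadly moved with this mean: their summed level was 41331, 52419, 58659 and 50585 CPM in cKO TAC 1 to 4, against 63494 to 74316 CPM in cKO sham hearts. In WT TAC 1 to 4 it was 54633, 65395, 65767 and 59902 CPM, against 66355 to 76260 CPM in WT sham hearts. Within groups the order agreed in part. On both measures cKO TAC 1 and cKO sham 2 were the lowest of their groups, and cKO TAC 3, cKO sham 3 and WT sham 1 the highest. Other libraries changed places. The markers summed to 52419 CPM in cKO TAC 2 and 50585 CPM in cKO TAC 4, and to 73652 CPM in cKO sham 1 and 68058 CPM in cKO sham 4. They summed to 71715 CPM in WT sham 2 and 66355 CPM in WT sham 3. The part of these markers in the results below was not tested, apart from the scaling to them given at the end.

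Uptake and binding split by gene. Of 4 genes 2 fell in cKO hearts (median log2 -0.40) and the same 2, Cd36 and Slc27a1, fell in WT hearts (median log2 -0.30). Slc27a1 (ENSMUSG00000031808), the fatty acid transport protein FATP1, measured 117, 121, 163 and 147 CPM in cKO TAC hearts, against 259, 232, 275 and 337 CPM in cKO sham hearts. Slc27a1 measured 136, 206, 183 and 227 CPM in WT TAC hearts, against 418, 292, 323 and 355 CPM in WT sham hearts. In both genotypes all TAC libraries lay below all sham libraries. Slc27a1 had log2 fold changes of -1.01 (SE 0.16, adjusted p = 0.000278) in cKO hearts and -0.88 (SE 0.16, adjusted p = 0.00141) in WT hearts. Counts of Cd36 (ENSMUSG00000002944), the fatty acid translocase of the plasma membrane, came to 1368, 1185, 1140.4 and 1023 CPM after TAC in cKO hearts, against 1492, 1758, 1559.9 and 1645 CPM after sham surgery in cKO hearts. In WT hearts Cd36 came to 1111, 1234, 1374 and 1114 CPM after TAC, against 1339, 1609, 1644 and 1613 CPM after sham surgery. The cKO groups did not overlap, whereas WT TAC 3 lay above WT sham 1. Cd36 fell by a log2 fold change of -0.45 (SE 0.11, adjusted p = 0.00544) in cKO hearts and of -0.36 (SE 0.11, adjusted p = 0.0309) in WT hearts. The WT call was lost without WT TAC 1, 2 or 4 or WT sham 2, 3 or 4 (adjusted p between 0.0555 and 0.098, log2 -0.37 to -0.33). Here and below, lists of lost calls cover left-out libraries unless said otherwise, and those lost under other processing are named at the end. Slc27a4, which encodes a further transport protein of the family, ranged over 27.2 to 36.3 CPM in cKO TAC hearts and 27.5 to 39.5 CPM in WT sham hearts, with log2 fold changes of -0.08 and -0.04 in cKO and WT hearts. Fabp3, the heart fatty acid binding protein, had the highest level per kilobase of exon of the 39 genes, 2733 CPM per kilobase in cKO TAC hearts and 4269 in WT sham hearts. Its log2 fold change after TAC was -0.35 (SE 0.13, adjusted p = 0.0581) in cKO hearts and -0.23 (SE 0.13, adjusted p = 0.256) in WT hearts, and 21.7% of its 100-base stretches also occur in other genes, chiefly a processed pseudogene.

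Activation was mixed as well, with Acsl1 and Acss1 lower after TAC in both genotypes and Acsl3 and Acsl4 past the threshold in neither (median log2 of the 4 genes -0.23 in cKO hearts and -0.31 in WT hearts). For Acsl1 (ENSMUSG00000018796), the main long-chain acyl-CoA synthetase of heart muscle, the cKO TAC libraries gave 346, 423, 487 and 417 CPM and the cKO sham libraries 618, 599.9, 641 and 682 CPM. For Acsl1 the WT TAC libraries gave 558, 714, 669.8 and 598 CPM and the WT sham libraries 746, 739.7, 828 and 876 CPM. Neither genotype had a TAC library as high as any of its sham libraries. Acsl1 had log2 fold changes of -0.60 (SE 0.11, adjusted p = 0.000709) in cKO hearts and -0.33 (SE 0.11, adjusted p = 0.046) in WT hearts. That WT call was near the threshold and was lost without cKO TAC 2 or 4 or cKO sham 1, 2, 3 or 4 or WT TAC 1, 3 or 4 or WT sham 3 or 4 (adjusted p between 0.0512 and 0.147, log2 -0.36 to -0.28). In cKO hearts Acsl4 (ENSMUSG00000031278), a synthetase that prefers arachidonic acid, stood at 18.0, 16.1, 12.4 and 15.8 CPM after TAC, against 11.5, 13.9, 9.38 and 12.0 CPM after sham surgery. In WT hearts Acsl4 stood at 13.8, 14.2, 15.1 and 16.4 CPM after TAC, against 10.3, 16.3, 12.0 and 14.5 CPM after sham surgery. The groups overlapped in both genotypes, and the cKO TAC libraries leaned higher. Acsl4 had a log2 fold change of 0.41 (SE 0.15, adjusted p = 0.0501) in cKO hearts and 0.16 (SE 0.15, adjusted p = 0.497) in WT hearts. It passed as higher in cKO hearts in 8 of 24 alternatives, namely with library totals alone, a filter of 1 CPM in 4 libraries, the replicate block, DESeq2, and without cKO TAC 3, cKO sham 2, WT sham 1 or WT sham 2 (log2 0.40 to 0.61, adjusted p between 0.00938 and 0.0491). Acss1, the mitochondrial acetyl-CoA synthetase, had a log2 fold change of -0.53 (SE 0.12, adjusted p = 0.00354) in cKO hearts and of -0.68 (SE 0.12, adjusted p = 0.00103) in WT hearts, with no overlap in either. Acsl3, a synthetase of lipid droplets and the endoplasmic reticulum, was low, at 3.41 to 4.47 CPM in cKO TAC hearts and 3.04 to 4.54 CPM in cKO sham hearts, and at 3.51 to 6.30 CPM in WT TAC hearts and 5.74 to 6.21 CPM in WT sham hearts.

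In the carnitine shuttle Cpt2 and Crat fell in both genotypes, while neither form of the entry enzyme passed (median log2 of the 4 genes -0.68 in cKO hearts and -0.19 in WT hearts). Counts of Cpt2 (ENSMUSG00000028607), the carnitine palmitoyltransferase of the inner membrane, came to 97.5, 117, 135 and 109 CPM after TAC in cKO hearts, against 188, 189, 216 and 205 CPM after sham surgery in cKO hearts. In WT hearts Cpt2 came to 149, 185, 184 and 164 CPM after TAC, against 276, 215, 232 and 231 CPM after sham surgery. The TAC and sham libraries were separate in both genotypes. Cpt2 fell by a log2 fold change of -0.80 (SE 0.11, adjusted p = 8.24e-05) in cKO hearts and of -0.48 (SE 0.11, adjusted p = 0.00567) in WT hearts. For Crat (ENSMUSG00000026853), carnitine acetyltransferase, which buffers acetyl-CoA, the cKO TAC libraries gave 223, 271, 332 and 279.6 CPM and the cKO sham libraries 505, 408, 564 and 500.2 CPM. For Crat the WT TAC libraries gave 355, 468, 451 and 421 CPM and the WT sham libraries 721, 538, 532 and 612 CPM. Here too no TAC library reached a sham library of its genotype. Crat had log2 fold changes of -0.84 (SE 0.13, adjusted p = 0.000291) in cKO hearts and -0.50 (SE 0.13, adjusted p = 0.0166) in WT hearts, the WT call being lost without WT TAC 1 or WT sham 1 (adjusted p between 0.0505 and 0.0679, log2 -0.43 to -0.40). Cpt1a (ENSMUSG00000024900), the liver form of the outer-membrane enzyme, measured 52.3, 52.7, 49.0 and 57.5 CPM in cKO TAC hearts, against 39.8, 53.8, 43.3 and 49.0 CPM in cKO sham hearts. Cpt1a measured 44.0, 50.7, 41.6 and 46.2 CPM in WT TAC hearts, against 42.6, 39.9, 43.4 and 43.1 CPM in WT sham hearts. These groups overlapped, with estimates just above 0. Cpt1a had a log2 fold change of 0.19 (SE 0.09, adjusted p = 0.154) in cKO hearts and 0.11 (SE 0.09, adjusted p = 0.454) in WT hearts. It passed as higher in cKO hearts in 2 of 24 alternatives, with library totals alone (log2 0.38) and without cKO sham 2 (log2 0.26).

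In cKO hearts Cpt1b (ENSMUSG00000078937), the muscle form of that enzyme and known as the main form in heart, stood at 2.84, 5.94, 8.25 and 8.59 CPM after TAC, against 9.26, 8.28, 9.23 and 11.3 CPM after sham surgery. In WT hearts Cpt1b stood at 6.25, 10.9, 6.87 and 6.12 CPM after TAC, against 4.89, 8.06, 7.98 and 6.42 CPM after sham surgery. TAC and sham libraries overlapped, cKO TAC 1 being the lowest library and cKO sham 4 the highest. Cpt1b had log2 fold changes of -0.57 (SE 0.27, adjusted p = 0.129) in cKO hearts and 0.13 (SE 0.27, adjusted p = 0.787) in WT hearts, and neither passed. Per kilobase of exon it stood at 1.90 CPM in cKO TAC hearts and 2.03 in WT sham hearts, below Cpt1a at 6.92 and 5.53. In the GRCm38 annotation 81.4% of the exon bases of Cpt1b overlap exons of Gm44502, a gene on the same strand with 0 counts in every library. The authors' handling of reads that overlap several genes is not given in the sources used here, so the Cpt1b values are uncertain as a measure of its messenger RNA, and the part of this overlap was not tested.

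Both genes of malonyl-CoA control fell in both genotypes, one that makes the inhibitor of the shuttle and one that removes it. For Mlycd (ENSMUSG00000074064), malonyl-CoA decarboxylase, which removes malonyl-CoA, the cKO TAC libraries gave 45.8, 54.2, 57.8 and 58.2 CPM and the cKO sham libraries 93.5, 92.4, 133 and 121 CPM. For Mlycd the WT TAC libraries gave 74.9, 90.2, 89.2 and 82.1 CPM and the WT sham libraries 162, 113, 138 and 141 CPM. Every TAC library was below every sham library of its genotype. Mlycd fell by a log2 fold change of -1.02 (SE 0.13, adjusted p = 4.85e-05) in cKO hearts and of -0.72 (SE 0.13, adjusted p = 0.00115) in WT hearts. Counts of Acacb (ENSMUSG00000042010), acetyl-CoA carboxylase 2, which makes malonyl-CoA, came to 188, 213, 227 and 193 CPM after TAC in cKO hearts, against 344, 265, 298 and 342 CPM after sham surgery in cKO hearts. In WT hearts Acacb came to 262, 339, 279 and 233 CPM after TAC, against 406, 319, 344 and 404 CPM after sham surgery. The cKO groups were separate, and WT TAC 2 lay above WT sham 2. Acacb had log2 fold changes of -0.61 (SE 0.12, adjusted p = 0.00156) in cKO hearts and -0.40 (SE 0.12, adjusted p = 0.0302) in WT hearts, where the call was lost without WT TAC 1, 3 or 4 or WT sham 1 or 4 (adjusted p between 0.0572 and 0.0896, log2 -0.41 to -0.33).

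**Figure D2:**
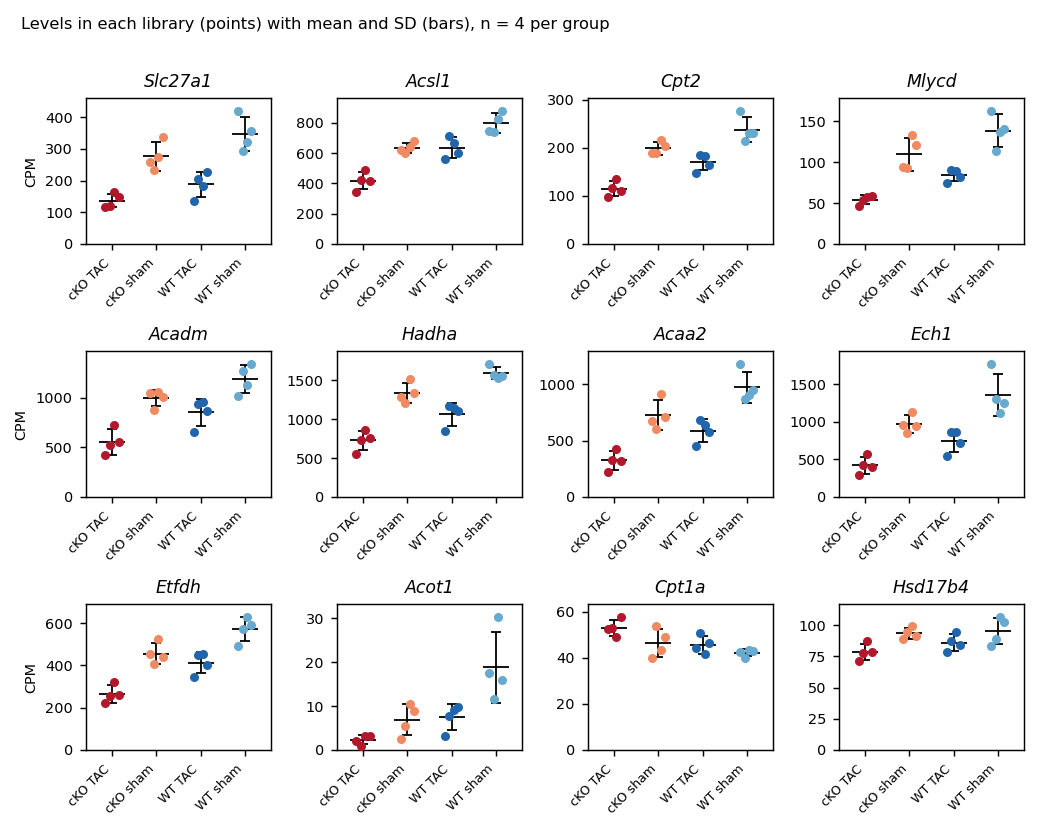
Each panel shows 1 gene, with CPM on a vertical axis that starts at 0 and the groups cKO TAC, cKO sham, WT TAC and WT sham from left to right. Points are libraries and bars are the mean and SD of 4. The cKO TAC points lie below the cKO sham points in 10 panels, the exceptions being Cpt1a and Acot1, and Acot1 measures 0.947 to 3.08 CPM in cKO TAC hearts.

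Of the 7 acyl-CoA dehydrogenases, which take the first step of each cycle, 5 fell in cKO hearts (median log2 -0.65) and 4 in WT hearts (median log2 -0.46). Acadvl (ENSMUSG00000018574), the very-long-chain dehydrogenase of the inner membrane, measured 210.2, 279, 312 and 259 CPM in cKO TAC hearts, against 457, 402, 482 and 469 CPM in cKO sham hearts. Acadvl measured 344, 454, 404 and 381 CPM in WT TAC hearts, against 518, 549.9, 554 and 576 CPM in WT sham hearts. All TAC libraries lay below all sham libraries in each genotype. Acadvl had log2 fold changes of -0.77 (SE 0.11, adjusted p = 0.000152) in cKO hearts and -0.47 (SE 0.11, adjusted p = 0.00873) in WT hearts. In the GRCm38 annotation 42.9% of its exon bases lie opposite Dvl2, and whether counting used strand is not given in the sources used here. In cKO hearts Acadm (ENSMUSG00000062908), the medium-chain dehydrogenase, stood at 418, 522, 729 and 554 CPM after TAC, against 1045, 877, 1058 and 1008 CPM after sham surgery. In WT hearts Acadm stood at 657, 939, 954 and 864 CPM after TAC, against 1019, 1263, 1128 and 1334 CPM after sham surgery. Again neither genotype showed an overlap of TAC and sham libraries. Acadm fell by a log2 fold change of -0.84 (SE 0.15, adjusted p = 0.000666) in cKO hearts and of -0.47 (SE 0.15, adjusted p = 0.0382) in WT hearts, and the WT call was lost without WT TAC 1 or 4 or WT sham 2 or 4 (adjusted p between 0.0596 and 0.135, log2 -0.48 to -0.37). For Acads (ENSMUSG00000029545), the short-chain dehydrogenase, the cKO TAC libraries gave 92.6, 115, 124 and 97.7 CPM and the cKO sham libraries 173, 159, 198 and 182 CPM. For Acads the WT TAC libraries gave 162, 179, 167 and 157 CPM and the WT sham libraries 341, 199, 198 and 234 CPM. The groups did not overlap in either genotype, and WT sham 1 was the highest of the 16 libraries. Acads had log2 fold changes of -0.73 (SE 0.15, adjusted p = 0.00153) in cKO hearts and -0.55 (SE 0.14, adjusted p = 0.0159) in WT hearts, where the value without WT sham 1 was -0.34 and still passed.

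Counts of Acad11 (ENSMUSG00000090150), a dehydrogenase of long and very long chains, came to 74.6, 78.5, 89.4 and 78.4 CPM after TAC in cKO hearts, against 129, 116, 130.1 and 127 CPM after sham surgery in cKO hearts. In WT hearts Acad11 came to 94.9, 107, 95.8 and 96.1 CPM after TAC, against 138, 119, 146 and 138 CPM after sham surgery. TAC libraries lay below sham libraries in both genotypes. Acad11 had log2 fold changes of -0.65 (SE 0.08, adjusted p = 5.75e-05) in cKO hearts and -0.46 (SE 0.08, adjusted p = 0.00153) in WT hearts. Acadl, the long-chain dehydrogenase, measured 600.1 to 826 CPM in cKO TAC hearts and 875 to 1027 CPM in cKO sham hearts, with a log2 fold change of -0.37 (SE 0.11, adjusted p = 0.0155). The cKO call was lost without cKO TAC 1 or cKO sham 3 (adjusted p between 0.0512 and 0.0569, log2 -0.32 to -0.31). It was also lost with library totals alone (adjusted p = 0.140, log2 -0.18). In WT hearts the log2 fold change of Acadl was -0.22 (SE 0.11, adjusted p = 0.177). Acad9, which is known above all as an assembly factor of respiratory complex I, and Acad10 passed in neither genotype. Their log2 fold changes were -0.20 and -0.46 in cKO hearts and -0.23 and -0.41 in WT hearts.

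Among the later reactions of the spiral 5 of 5 genes fell in cKO hearts (median log2 -0.86) and 4 of 5 fell in WT hearts (median log2 -0.54). In cKO hearts Hadha (ENSMUSG00000025745), the alpha subunit of the trifunctional protein, with hydratase and long-chain dehydrogenase activity, stood at 557, 729.7, 860.0 and 758 CPM after TAC, against 1287, 1211, 1520.0 and 1334 CPM after sham surgery. In WT hearts Hadha stood at 846, 1173, 1137 and 1102 CPM after TAC, against 1703, 1570.2, 1531 and 1561 CPM after sham surgery. TAC libraries were all below sham libraries in each genotype. Hadhb (ENSMUSG00000059447), its beta subunit, the long-chain thiolase, measured 511, 670.3, 782 and 687 CPM in cKO TAC hearts, against 1230.0, 1081, 1295 and 1191 CPM in cKO sham hearts. Hadhb measured 765, 973, 1026 and 988 CPM in WT TAC hearts, against 1378, 1343, 1251 and 1489 CPM in WT sham hearts. For Hadhb too, TAC libraries were all below sham libraries. The log2 fold changes of Hadha and Hadhb were -0.88 (SE 0.13, adjusted p = 0.000144) and -0.86 (SE 0.12, adjusted p = 0.000135) in cKO hearts. In WT hearts those of Hadha and Hadhb were -0.58 (SE 0.13, adjusted p = 0.0054) and -0.54 (SE 0.12, adjusted p = 0.00657). Of the 100-base stretches of Hadhb 14.8% also occur elsewhere, chiefly in the processed pseudogene Gm13910.

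Counts of Hadh (ENSMUSG00000027984), the dehydrogenase of medium and short chains, came to 164, 216, 299.5 and 231 CPM after TAC in cKO hearts, against 405, 359.6, 433 and 435 CPM after sham surgery in cKO hearts. In WT hearts Hadh came to 321, 444, 461 and 394 CPM after TAC, against 511, 563, 504 and 579 CPM after sham surgery. In both genotypes the TAC libraries lay below the sham libraries, and cKO TAC 1 was the lowest of all. Hadh had log2 fold changes of -0.84 (SE 0.15, adjusted p = 0.00054) in cKO hearts and -0.41 (SE 0.15, adjusted p = 0.0599) in WT hearts, the WT value missing the threshold. For Acaa2 (ENSMUSG00000036880), the mitochondrial 3-ketoacyl-CoA thiolase, the cKO TAC libraries gave 225, 325, 428 and 321 CPM and the cKO sham libraries 672, 607, 919 and 712 CPM. For Acaa2 the WT TAC libraries gave 451, 688, 639.8 and 581 CPM and the WT sham libraries 1178, 868, 906 and 948 CPM. No TAC library reached a sham library of its genotype. Acaa2 fell by a log2 fold change of -1.16 (SE 0.18, adjusted p = 0.000226) in cKO hearts and of -0.73 (SE 0.18, adjusted p = 0.0107) in WT hearts. Echs1, the short-chain enoyl-CoA hydratase, ranged over 198 to 274 CPM in cKO TAC hearts and 274 to 369 CPM in cKO sham hearts, which just touch. Its log2 fold change was -0.59 (SE 0.12, adjusted p = 0.00124) in cKO hearts and -0.40 (SE 0.12, adjusted p = 0.0254) in WT hearts, where the call was lost without WT TAC 1 or 2 or WT sham 1 or 4 (adjusted p between 0.051 and 0.0929, log2 -0.39 to -0.35).

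Auxiliary enzymes, which bring the double bonds of unsaturated chains into the form the spiral accepts, had 4 of 4 genes lower in cKO hearts (median log2 -0.88) and 3 of 4 in WT hearts (median log2 -0.49). Ech1 (ENSMUSG00000053898), dienoyl-CoA isomerase, measured 295, 427, 571 and 401 CPM in cKO TAC hearts, against 957, 846, 1139 and 940.3 CPM in cKO sham hearts. Ech1 measured 544, 861, 860.1 and 722 CPM in WT TAC hearts, against 1768, 1307, 1114 and 1259 CPM in WT sham hearts. TAC and sham libraries were separate in both genotypes, with WT sham 1 the highest. Ech1 had log2 fold changes of -1.20 (SE 0.19, adjusted p = 0.000311) in cKO hearts and -0.87 (SE 0.19, adjusted p = 0.0055) in WT hearts. In cKO hearts Eci1 (ENSMUSG00000024132), an enoyl-CoA isomerase of the mitochondrion, stood at 82.8, 110.5, 150.0 and 118 CPM after TAC, against 211, 196, 275 and 223 CPM after sham surgery. In WT hearts Eci1 stood at 149.8, 233, 226 and 197 CPM after TAC, against 272, 275, 267 and 285 CPM after sham surgery. Again no library crossed between surgeries. Eci1 had log2 fold changes of -0.97 (SE 0.16, adjusted p = 0.000358) in cKO hearts and -0.45 (SE 0.16, adjusted p = 0.0601) in WT hearts, the WT value missing the threshold. For Decr1 (ENSMUSG00000028223), mitochondrial dienoyl-CoA reductase, the cKO TAC libraries gave 132, 164, 202 and 153 CPM and the cKO sham libraries 269, 271, 305 and 279 CPM. For Decr1 the WT TAC libraries gave 207, 294, 290.0 and 249 CPM and the WT sham libraries 394, 362, 355 and 383 CPM. Decr1 was lower in all TAC than in all sham libraries of each genotype. It fell by a log2 fold change of -0.79 (SE 0.12, adjusted p = 0.000226) in cKO hearts and of -0.52 (SE 0.12, adjusted p = 0.00774) in WT hearts. Eci2, the other isomerase, had log2 fold changes of -0.53 (SE 0.09, adjusted p = 0.00053) in cKO hearts and -0.37 (SE 0.09, adjusted p = 0.00991) in WT hearts, with no overlap in either.

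Electron transfer genes, which carry electrons from the dehydrogenases to ubiquinone, fell 3 of 3 in each genotype (median log2 -0.79 in cKO hearts and -0.49 in WT hearts). Counts of Etfdh (ENSMUSG00000027809), the flavoprotein dehydrogenase that hands electrons to ubiquinone, came to 220.2, 256, 320.2 and 259 CPM after TAC in cKO hearts, against 454, 408, 523 and 438 CPM after sham surgery in cKO hearts. In WT hearts Etfdh came to 346, 451, 455 and 403 CPM after TAC, against 493, 574, 627 and 589.6 CPM after sham surgery. The libraries of the 2 surgeries were separate within each genotype. Etfdh had log2 fold changes of -0.79 (SE 0.12, adjusted p = 0.000224) in cKO hearts and -0.46 (SE 0.12, adjusted p = 0.0152) in WT hearts, the WT call being lost without WT TAC 1 (adjusted p = 0.062, log2 -0.39). For Etfa (ENSMUSG00000032314), the alpha subunit of the electron transfer flavoprotein, the cKO TAC libraries gave 248, 288, 382 and 297 CPM and the cKO sham libraries 523, 470.5, 513 and 516 CPM. For Etfa the WT TAC libraries gave 372, 472, 523 and 432 CPM and the WT sham libraries 546, 694, 635 and 652 CPM. As for Etfdh, TAC libraries lay below sham libraries throughout. Etfa fell by a log2 fold change of -0.74 (SE 0.13, adjusted p = 0.000487) in cKO hearts and of -0.49 (SE 0.13, adjusted p = 0.0131) in WT hearts, where the call was lost without WT TAC 1 (adjusted p = 0.0542, log2 -0.41). Etfb, the beta subunit, measured 29.1, 34.6, 42.5 and 30.5 CPM in cKO TAC hearts, against 80.5, 65.7, 93.7 and 65.9 CPM in cKO sham hearts. WT TAC hearts held 46.0, 63.3, 66.3 and 52.3 CPM of Etfb, against 196, 82.4, 70.3 and 80.9 CPM in WT sham hearts, where replicate 1 stood far above the others. Its log2 fold change was -1.16 (SE 0.28, adjusted p = 0.00744) in cKO hearts and -0.91 (SE 0.28, adjusted p = 0.0367) in WT hearts, and the WT call was lost without WT TAC 1, 2 or 4 or WT sham 1 (adjusted p between 0.0577 and 0.118, log2 -0.97 to -0.45), the log2 value being -0.45 without WT sham 1. In the GRCm38 annotation 53.0% of the exon bases of Etfb overlap exons of Gm45233, a gene on the same strand which had counts in 1 library only. As for Cpt1b, the Etfb values are therefore uncertain as a measure of its messenger RNA, and the part of this overlap was not tested.

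**Figure D3:**
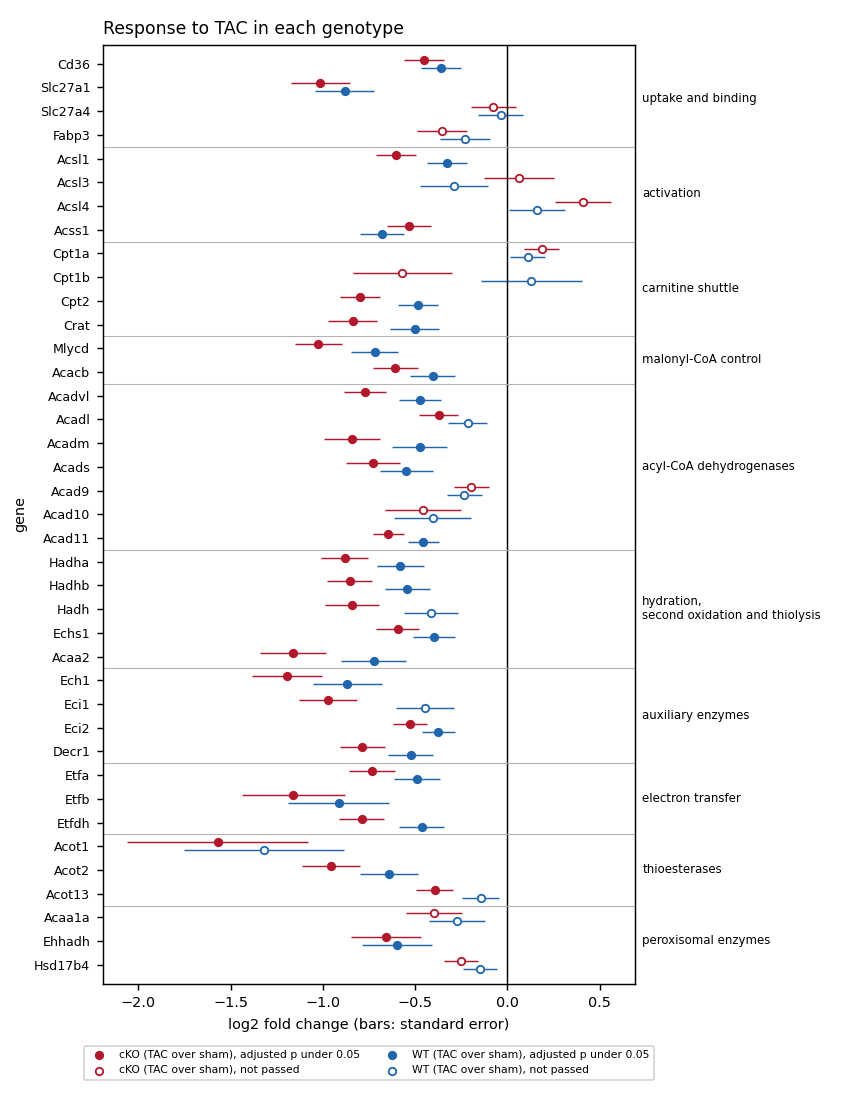
Log2 fold changes of TAC over sham are shown on the horizontal axis for each of the 39 genes, in cKO hearts (red) above WT hearts (blue), with standard errors as bars. Filled points passed an adjusted p of 0.05. All 29 filled cKO points and all 24 filled WT points lie below 0, and in 34 of 39 genes the cKO estimate lies to the left of the WT estimate.

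Among the thioesterases 3 of 3 fell in cKO hearts (median log2 -0.96) and 1 of 3 in WT hearts (median log2 -0.64). In cKO hearts Acot2 (ENSMUSG00000021226), the mitochondrial long-chain thioesterase, stood at 33.9, 43.1, 39.8 and 41.5 CPM after TAC, against 56.3, 71.7, 92.6 and 86.6 CPM after sham surgery. In WT hearts Acot2 stood at 50.2, 66.9, 63.7 and 60.9 CPM after TAC, against 79.0, 79.8, 124 and 94.0 CPM after sham surgery. TAC libraries lay below sham libraries in both genotypes, and WT sham 3 was the highest. Acot2 fell by a log2 fold change of -0.96 (SE 0.16, adjusted p = 0.000432) in cKO hearts and of -0.64 (SE 0.16, adjusted p = 0.011) in WT hearts. Acot1 (ENSMUSG00000072949), its cytosolic paralogue and a known PPAR alpha target in mouse, measured 2.02, 0.947, 3.06 and 3.08 CPM in cKO TAC hearts, against 2.54, 5.44, 10.4 and 8.92 CPM in cKO sham hearts. Acot1 measured 3.26, 7.79, 9.20 and 9.86 CPM in WT TAC hearts, against 17.4, 11.6, 30.2 and 16.0 CPM in WT sham hearts. The cKO groups overlapped through cKO sham 1, the WT groups did not, and WT sham 3 was again the highest. Acot1 had log2 fold changes of -1.57 (SE 0.49, adjusted p = 0.0293) in cKO hearts and -1.32 (SE 0.43, adjusted p = 0.0523) in WT hearts. The cKO call was lost without cKO TAC 1 or 2 or cKO sham 3 or 4 (adjusted p between 0.0763 and 0.0927, log2 -1.52 to -1.30). Acot1 and Acot2 share 12.4% and 17.1% of their 100-base stretches, chiefly with each other, so their split is uncertain. Acot13, a mitochondrial thioesterase, had log2 fold changes of -0.39 (SE 0.10, adjusted p = 0.00804) in cKO hearts and -0.14 (SE 0.10, adjusted p = 0.349) in WT hearts. Its cKO call was lost with library totals alone (adjusted p = 0.0791, log2 -0.20).

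Peroxisomal genes had 1 of 3 fallen in each genotype, with medians of -0.40 in cKO hearts and -0.27 in WT hearts. Counts of Ehhadh (ENSMUSG00000022853), the bifunctional enzyme of the peroxisomal spiral, came to 7.51, 4.99, 6.69 and 6.47 CPM after TAC in cKO hearts, against 9.72, 7.51, 13.3 and 10.1 CPM after sham surgery in cKO hearts. In WT hearts Ehhadh came to 6.31, 10.4, 6.35 and 7.17 CPM after TAC, against 13.1, 10.2, 9.83 and 12.6 CPM after sham surgery. The values were low and the groups overlapped in WT hearts and met in cKO hearts. Ehhadh fell by a log2 fold change of -0.66 (SE 0.19, adjusted p = 0.0171) in cKO hearts and of -0.60 (SE 0.19, adjusted p = 0.0396) in WT hearts. The cKO call was lost without cKO TAC 2 or cKO sham 3 (adjusted p between 0.0592 and 0.0751, log2 -0.56 to -0.51). The WT call was lost without cKO sham 4 or WT TAC 1, 3 or 4 or WT sham 1 or 4 (adjusted p between 0.0504 and 0.126, log2 -0.60 to -0.53). For Hsd17b4 (ENSMUSG00000024507), the multifunctional enzyme for branched and very long chains, the cKO TAC libraries gave 71.3, 77.4, 87.5 and 78.8 CPM and the cKO sham libraries 89.1, 94.9, 99.2 and 91.4 CPM. For Hsd17b4 the WT TAC libraries gave 78.3, 87.3, 94.6 and 84.3 CPM and the WT sham libraries 83.8, 88.9, 106 and 103 CPM. All cKO TAC libraries lay below all cKO sham libraries, and the WT groups overlapped. Hsd17b4 had log2 fold changes of -0.25 (SE 0.09, adjusted p = 0.0519) in cKO hearts and -0.15 (SE 0.09, adjusted p = 0.286) in WT hearts. The cKO value missed the threshold narrowly and passed it as lower in 10 of 24 alternatives, among them DESeq2 and the fits without cKO TAC 3, WT TAC 1, WT TAC 4, WT sham 1 or WT sham 3 (adjusted p between 0.0169 and 0.0494). Acaa1a, the peroxisomal thiolase, had log2 fold changes of -0.40 (SE 0.15, adjusted p = 0.0627) and -0.27 (SE 0.15, adjusted p = 0.238) in cKO and WT hearts, and 9.72% of its 100-base stretches also occur in other genes, chiefly its paralogue Acaa1b.

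Between genotypes after TAC, 16 of 39 genes were lower in cKO than in WT hearts and none was higher, with a median log2 fold change of -0.46 against 0.00 over all tested genes. Of all tested genes 1.18% were lower and 0.598% higher. By step, 0 of 4 uptake genes, 1 of 4 activation genes (Acsl1), 2 of 4 shuttle genes (Cpt2 and Crat) and 1 of 2 malonyl-CoA genes (Mlycd) were lower. So were 3 of 7 dehydrogenases (Acadvl, Acadm and Acads), 4 of 5 later spiral genes (Hadha, Hadhb, Hadh and Acaa2), 3 of 4 auxiliary enzymes (Ech1, Eci1 and Decr1) and 2 of 3 electron transfer genes (Etfa and Etfdh), but 0 of 3 thioesterases and 0 of 3 peroxisomal genes. The log2 fold change was -0.86 (SE 0.18, adjusted p = 0.0279) for Acaa2, -0.83 (SE 0.15, adjusted p = 0.0156) for Hadh and -0.82 (SE 0.19, adjusted p = 0.0357) for Ech1. It was -0.81 (SE 0.16, adjusted p = 0.021) for Eci1, -0.68 (SE 0.12, adjusted p = 0.0156) for Decr1 and -0.65 (SE 0.12, adjusted p = 0.0156) for Etfdh. The other called genes lay between -0.64 (Mlycd) and -0.50 (Hadhb), among them Acsl1 at -0.60 (SE 0.11, adjusted p = 0.0156) and Cpt2 at -0.57 (SE 0.11, adjusted p = 0.0157). In the library values above, every cKO TAC library lay below every WT TAC library for 16 of 39 genes (5.11% of all tested genes), while cKO TAC 3 was above WT TAC 1 for Hadha, Hadhb, Acadm, Ech1, Eci1 and Etfa. Acot1 had the lowest estimate, -1.72 (SE 0.49, adjusted p = 0.0824), with no overlap and no call, and Cd36 was at -0.04 (SE 0.11, adjusted p = 0.915).

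The count after TAC rested on single libraries. Without cKO TAC 2, WT TAC 2 or WT TAC 3 none of the 39 genes passed, and over all tested genes 8, 2 and 6 were then higher and 12, 11 and 14 lower. Without cKO TAC 1 or cKO TAC 4 only Acsl1 and Hadh passed, and without cKO TAC 3 there were 21, the added ones being Fabp3, Acacb, Acad11, Echs1 and Eci2. Under these omissions the log2 fold changes of the 16 genes stayed between -1.02 and -0.40, and their highest adjusted p was 0.163, for Hadhb without WT TAC 3. Without WT TAC 4, cKO sham 1, cKO sham 4, WT sham 2 or WT sham 4 between 11 and 14 of the 16 calls were kept, and without any other library all 16 were. Fitted to the 8 TAC libraries alone 8 genes passed, 6 of them among the 16, and the share of all tested genes then called is not given here.

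In sham hearts no gene of the 39 passed between genotypes, against 0.552% of all tested genes lower and 0.618% higher in cKO. At an unadjusted p under 0.05 there were 15 of 39, against 15.0% of all tested genes, and 34 of 39 estimates lay below 0, against 52.4% of all tested genes, with a median log2 of -0.25 against -0.01 over all tested genes. The test of DESeq2 called 3 genes lower (Acsl1, Acsl3 and Decr1). The share of all tested genes that DESeq2 called is not given here, so this count is not read as a result about the 39 genes. By edgeR's test the estimates were as follows. Decr1 had a log2 fold change of -0.41 (SE 0.12, adjusted p = 0.107), Acsl1 of -0.33 (SE 0.11, adjusted p = 0.14) and Acsl3 of -0.62 (SE 0.19, adjusted p = 0.113), and Acot1 again had the lowest, -1.47 (SE 0.44, adjusted p = 0.122). Every cKO sham library lay below every WT sham library for 8 of 39 genes (3.59% of all tested genes), namely Acsl1, Acsl3, Acadvl, Hadha, Hadh, Decr1, Etfa and Acot1. The reverse held for 1 of 39, Cpt1b, with 8.28 to 11.3 CPM in cKO sham hearts, against 4.89 to 8.06 CPM in WT sham hearts. Cpt1b had the highest estimate of the 39, 0.47 (SE 0.27, adjusted p = 0.437), and did not pass. The share of all tested genes in this reverse order is not given here, so it is not read as a result about Cpt1b.

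**Figure D4:**
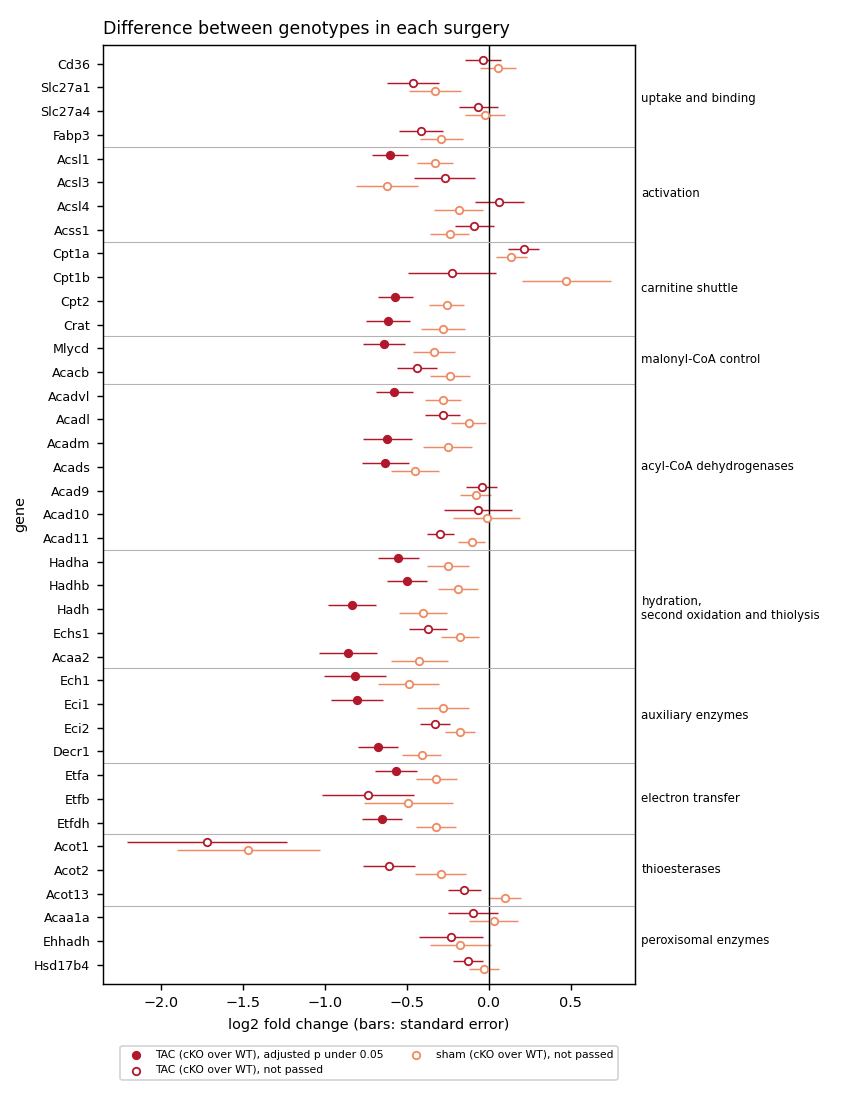
Log2 fold changes of cKO over WT are shown on the horizontal axis for each gene, after TAC (dark red) above sham surgery (orange), with standard errors as bars. Filled points passed an adjusted p of 0.05. There are 16 filled points, all after TAC and below 0, and no sham point is filled.

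As for whether TAC acted differently in the 2 genotypes, the interaction (log2 fold change in cKO hearts minus that in WT hearts) passed for 0 of 39 genes in edgeR's quasi-likelihood test, and for 0% of all tested genes in each direction. DESeq2 also called 0 of the 39. At an unadjusted p under 0.05 there were 715 of 15206 genes (4.70%), and of the 39 Eci1 alone, with a log2 difference of -0.53 (SE 0.22, adjusted p = 0.946). The estimate was below 0 for 34 of 39 genes, against 49.5% of all tested genes, with a median of -0.24. Scaled to cardiomyocyte markers that median was 0.04, where the median of all tested genes was 0.27. By step the median interaction was -0.32 for the shuttle, -0.31 for the later spiral, -0.30 for the auxiliary enzymes, -0.25 for electron transfer, -0.25 for malonyl-CoA control, -0.25 for the thioesterases, -0.18 for the dehydrogenases, -0.11 for uptake and -0.10 for the peroxisomal genes, and it was 0.20 for activation. The 5 genes that fell in cKO hearts alone are therefore not shown to respond differently.

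Pairs of genes were compared within each library as log2 ratios, with an exact permutation test over the 70 ways of assigning 8 libraries to 2 groups, whose smallest possible p is 0.0286. None of 12 such tests passed after adjustment, the lowest adjusted p being 0.137. The ratio of Acsl4 to Acsl1 was -4.70 ± 0.42 in cKO TAC hearts and -5.71 ± 0.26 in cKO sham hearts (SD, n = 4 each), a difference of 1.01 with an exact p of 0.0286 and no overlap. In WT hearts it was -5.37 ± 0.19 after TAC and -5.87 ± 0.29 after sham surgery, a difference of 0.50 with an exact p of 0.0571. Between cKO TAC and WT TAC hearts the difference was 0.66 (exact p = 0.0571). The ratio of Cpt1a to Cpt1b was 3.05 ± 0.66 in cKO TAC hearts and 2.23 ± 0.27 in cKO sham hearts, and 2.56 ± 0.29 and 2.57 ± 0.34 in WT TAC and WT sham hearts, the cKO difference of 0.82 having an exact p of 0.0571. Hadha to Hadhb was nearly the same in every library, 0.13 ± 0.01 in cKO TAC hearts, 0.16 ± 0.07 in cKO sham hearts, 0.18 ± 0.06 in WT TAC hearts and 0.22 ± 0.11 in WT sham hearts. Its difference between cKO TAC and WT TAC hearts was -0.05 (exact p = 0.0286).

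**Figure D5:**
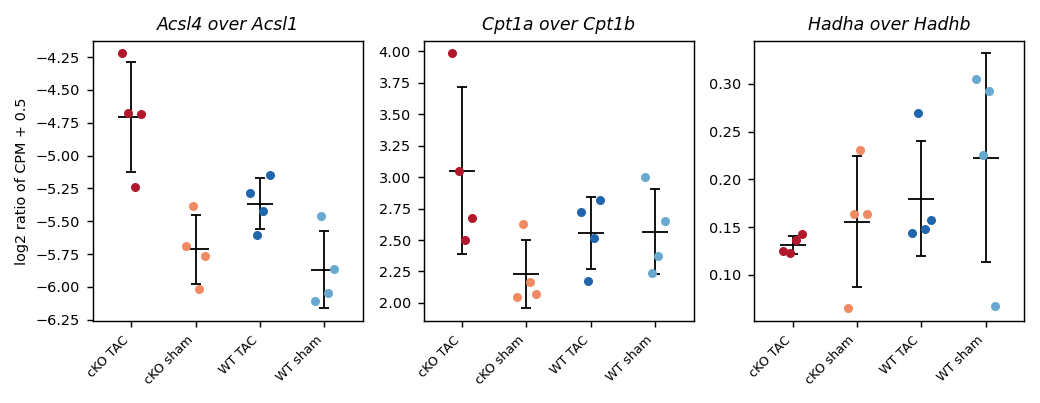
Log2 ratios of 2 genes within each library (points) with the mean and SD of 4 libraries (bars), for Acsl4 over Acsl1, Cpt1a over Cpt1b and Hadha over Hadhb; the axes do not start at 0. Acsl4 over Acsl1 is highest in cKO TAC hearts, at -5.24 to -4.22, and Hadha over Hadhb stays within 0.07 to 0.31 in all libraries.

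Of 51 further genes of the pathway 43 could be tested. After TAC 6 rose and 17 fell in cKO hearts, and 4 rose and 10 fell in WT hearts. Beside them stand 14.2% of all tested genes higher and 12.4% lower in cKO hearts, and 9.7% higher and 6.14% lower in WT hearts, so the rises are near the share of all genes. Those that rose in cKO hearts with the smallest adjusted p were Cpt1c, the brain form of the shuttle enzyme, at 1.12 (SE 0.17, adjusted p = 0.000222) on the log2 scale, the synthetase Acsl5 at 0.55 (SE 0.10, adjusted p = 0.000885) and the binding protein Fabp5 at 0.66 (SE 0.17, adjusted p = 0.00923). In WT hearts Acsl5 was at 0.44 (SE 0.10, adjusted p = 0.00709), the family member Slc27a3 at 0.84 (SE 0.20, adjusted p = 0.00781) and Fabp5 at 0.61 (SE 0.17, adjusted p = 0.0225). Acad12, Vldlr and Slc25a20 fell with the smallest adjusted p in cKO hearts, at log2 -0.86 (SE 0.11, adjusted p = 6.91e-05) for the dehydrogenase Acad12, which shares sequence with Acad10, -0.67 (SE 0.10, adjusted p = 0.000246) for the lipoprotein receptor Vldlr and -0.65 (SE 0.12, adjusted p = 0.000706) for the carnitine-acylcarnitine carrier Slc25a20. In WT hearts Acad12 was at -0.60 (SE 0.11, adjusted p = 0.002), the short branched-chain dehydrogenase Acadsb at -0.46 (SE 0.10, adjusted p = 0.00425) and the carnitine transporter Slc22a5 at -0.47 (SE 0.12, adjusted p = 0.0111). Between genotypes only the thioesterase Acot7 passed, after TAC, at -0.50 (SE 0.13, adjusted p = 0.0499), and no further gene passed in sham hearts or in the interaction. That is 1 of 43 genes, against 1.18% of all tested genes lower and 0.598% higher. The adjusted p of Acot7 lay at the threshold, and its call under the alternatives is not given here.

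Of 13 regulators of the pathway 7 fell and none rose after TAC in cKO hearts, and 3 fell and none rose in WT hearts. The shares of all tested genes were 12.4% lower and 14.2% higher in cKO hearts, and 6.14% lower and 9.7% higher in WT hearts. Between genotypes after TAC 1 of 13 passed, Lpin1, a coactivator that is also a phosphatidate phosphatase, at -0.47 (SE 0.11, adjusted p = 0.0401) on the log2 scale. Of all tested genes 1.18% were lower and 0.598% higher in that comparison. Esrra, which encodes the nuclear receptor ERR alpha, measured 133, 141, 159.8 and 143 CPM in cKO TAC hearts, against 223, 187, 212 and 215 CPM in cKO sham hearts. In WT hearts Esrra measured 181, 202, 177 and 166 CPM after TAC, against 299.9, 227, 230.2 and 229 CPM after sham surgery. The groups did not overlap in either genotype, and the log2 fold changes were -0.54 (SE 0.10, adjusted p = 0.00105) and -0.44 (SE 0.10, adjusted p = 0.00695) in cKO and WT hearts. Ppargc1a, the coactivator PGC-1 alpha, measured 58.2, 46.7, 56.2 and 46.9 CPM in cKO TAC hearts and 104, 121, 122 and 138 CPM in WT TAC hearts, with no overlap. The log2 fold change between these groups was -1.22 (SE 0.43, adjusted p = 0.163), and it did not pass. Sham libraries of Ppargc1a spread widely, over 75.0 to 151 CPM in cKO and 68.0 to 332 CPM in WT hearts. Ppara and Pparg passed in no comparison, with log2 fold changes after TAC of -0.11 and -0.00 in cKO hearts and -0.06 and 0.42 in WT hearts.

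Markers of cardiomyocytes and of other cells moved with the surgery. Of 8 cardiomyocyte markers 6 fell after TAC in cKO hearts (median log2 -0.57) and 2 in WT hearts (median log2 -0.27). Of 7 fibroblast markers 6 rose in cKO hearts and 5 in WT hearts, their summed level being 3203 to 6564 CPM in cKO TAC hearts, 923 to 1730 CPM in cKO sham hearts, 2095 to 3253 CPM in WT TAC hearts and 723 to 1198 CPM in WT sham hearts. Macrophage markers rose for 5 of 7 genes in cKO and 4 of 7 in WT hearts, endothelial markers for 3 of 8 and 2 of 8, and smooth muscle and pericyte markers for 1 of 5 and 2 of 5, while 0 of 3 erythrocyte markers passed in either. Among all tested genes 14.2% rose and 12.4% fell in cKO hearts, and 9.7% rose and 6.14% fell in WT hearts. Between genotypes after TAC 0 of 8 cardiomyocyte markers passed, with a median log2 of -0.35, and 1 of 7 fibroblast markers (Pdgfra) was higher in cKO. Of all tested genes 1.18% were lower and 0.598% higher in that comparison. None of 4 atrial markers passed in any comparison, though 3 of 4 had an unadjusted p under 0.05 between genotypes, after TAC as after sham. Nppa, which the loaded ventricle is also known to express, measured 960.4 to 1933 CPM in cKO TAC hearts, 261 to 671 CPM in cKO sham hearts, 162 to 642 CPM in WT TAC hearts and 14.1 to 1221 CPM in WT sham hearts. Myl7, an atrial light chain, was at 0.242 CPM or less in cKO TAC hearts and at 3.36 CPM or less in cKO sham hearts. It reached 329 CPM in WT TAC 4 and 871 CPM in WT sham 3, with 92.3 and 47.4 CPM in WT sham 2 and 4 and at most 4.66 CPM in the other WT libraries, and Myl4 and Sln were highest in the same 2 libraries. Without WT sham 3 the WT count after TAC was 22, and without WT TAC 4 it was 18, the count between genotypes after TAC then being 13. Adipocyte markers were too low to test, all 5 summing to at most 0.692 CPM in each cKO library and to at most 18.3 CPM in WT TAC 4. Scaled to the mean of the 8 cardiomyocyte markers, a choice made after the data were seen, 13 genes fell and 6 rose in cKO hearts after TAC, with a median log2 of -0.10 where that of all tested genes was 0.55. In WT hearts 8 fell and none rose (median -0.18, against 0.27 over all genes), and 6 were lower and 1 higher in cKO than in WT hearts after TAC (median -0.09, against 0.39 over all genes). The shares of all tested genes called under this scaling are not given here. Since it moved the median of all genes upward, these counts do not compare with the shares under TMM. The part of these cells in the falls was not tested otherwise.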

How the data were processed

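RNA of mouse left ventricle was sequenced as 16 paired-end libraries made with the NEBNext Ultra kit, per the labels' protocols. The values used are raw read counts by Ensembl gene, as the authors deposited them. Among the tools in the submitters' processing notes are featureCounts 2.0.6, SAMtools 1.21, HISAT2 2.0.5, fastp 0.22.0 and FastQC, and the build named there is GRCm39. The annotation release, the use of strand and the handling of reads that match several genes are not given in the sources used here. Symbols, exon lengths and overlaps came from GENCODE M21 on GRCm38, so levels per kilobase rest on that annotation, and promoter sequences from RefSeq on GRCm38.p6.

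From these counts, genes were filtered with filterByExpr, scaled by TMM and tested in 1 fit of all 4 groups with edgeR 4.0.16 (quasi-likelihood F-test, robust) in R 4.3.3, without a replicate term. P-values were Benjamini-Hochberg adjusted over 15206 genes, and the threshold was 0.05. Standard errors are the fold change divided by the root of F. Ratios used log2 (CPM + 0.5). Alternatives were DESeq2 1.42.0 (its test and its size factors), library totals, other filters, the compared groups alone, a replicate block, mitochondrially encoded genes left out, and each library left out. Scaling to cardiomyocyte markers was added after the data were seen. The fit was tested on simulated data. Total counts per library ranged from 12946878 to 16347388, and their number limits the precision of low genes. All 39 genes are named by step, with values in every library for genes picked as key enzymes, called between genotypes or with the smallest p of their step. The members and lists were chosen with earlier results of these data known.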

Additional observations from a re-analysis of the deposited data

Results flagged for a closer look

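In 7 of 156 sets of 4 libraries (39 genes in 4 groups) 1 library stood apart from the other 3 by a gap above Dixon's 95% critical share of the whole range, and chance alone flags about 1 in 20 such sets. No cause was tested. Cd36, the fatty acid translocase, measured 1339 CPM in WT sham 1, against 1609 to 1644 CPM in the other WT sham libraries, and the long-chain dehydrogenase Acadl measured 883 CPM in WT sham 1, against 1033 to 1055 CPM in the others. The same library had 196 CPM of Etfb, the beta subunit of the electron transfer flavoprotein, where the other WT sham libraries had 70.3 to 82.4 CPM. Acsl3 measured 6.21 CPM in WT sham 3 and 5.74 to 5.80 CPM in the rest of its group. In WT TAC 2 the shuttle enzyme Cpt1b measured 10.9 CPM, against 6.12 to 6.87 CPM in the other WT TAC libraries, and Acad11 measured 107 CPM, against 94.9 to 96.1 CPM. The peroxisomal thiolase Acaa1a measured 88.6 CPM in cKO sham 2, against 61.2 to 65.2 CPM in the other cKO sham libraries.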

How the results depend on the processing

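Of the falls after TAC, 24 of 29 in cKO hearts and 14 of 24 in WT hearts were kept under all 24 alternatives chosen at the outset, and 0 of 16 between genotypes after TAC. Leaving out single libraries gave 26 to 33 called genes in cKO hearts, 14 (without WT TAC 1) to 26 in WT hearts, and 0 to 21 between genotypes after TAC. The TAC groups fitted alone gave 8 between genotypes. Calls lost with library totals alone were Cd36, Acadl, Acot13 and Ehhadh in cKO hearts. In WT hearts they were Cd36, Acsl1, Acacb, Acadm, Echs1 and Ehhadh. With no filter Acot1 was lost in cKO hearts, Etfb in WT hearts and Ech1 between genotypes after TAC. The WT groups fitted alone lost Cd36, Acsl1, Acacb, Etfb and Ehhadh. With the replicate block Acacb, Etfb and Ehhadh were lost in WT hearts, and Acads between genotypes after TAC. In sham hearts 1 gene passed with no filter (Decr1), 1 with the replicate block (Acot1) and 3 with DESeq2. With library totals alone 25 genes fell and 2 rose in cKO hearts and 18 fell in WT hearts, while over all genes 4013 rose and 877 fell in cKO hearts (with TMM 2154 and 1880) and 2170 rose and 432 fell in WT hearts (with TMM 1475 and 934), the median of all genes being 0.20 and 0.11.

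Scaled to cardiomyocyte markers, 19 genes were called after TAC in cKO hearts, 8 in WT hearts and 7 between genotypes after TAC. Under that scaling 8 log2 fold changes turned positive in cKO hearts: Cd36 0.11, Slc27a4 0.48, Acss1 0.027, Acadl 0.17, Acad9 0.35, Eci2 0.022, Acot13 0.15 and Hsd17b4 0.29. Among them Slc27a4, Acad9 and Hsd17b4 passed as higher, and Cd36, Acss1, Acadl, Eci2 and Acot13 did not pass. The scaling also moved the median of all tested genes upward, as given above, so these turns are not particular to the 8 genes. No cause beyond that common shift was tested.

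The replicate block gave 32 called genes in cKO hearts, 24 in WT hearts, 17 between genotypes after TAC, 1 in sham hearts and 0 for the interaction. The shares of all tested genes called under the replicate block, DESeq2, other filters, the compared groups alone and most left-out libraries are not given here. Counts under those settings therefore show only how the calls depend on the processing. Replicate numbers did not pair the libraries throughout. The correlation of deviations exceeded 0.1 in 4 of 24 same-numbered pairs (-0.19 to 0.26), and 6 of 16 libraries correlated best with their own number. It was highest, at 0.26, between cKO TAC 3 and WT TAC 3 and between cKO TAC 3 and cKO sham 3. Correlations of differently numbered pairs are not given here, and a batch shared by number was not tested. Depth limits genes such as Acot1, Acsl3, Cpt1b and Ehhadh.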
